A study of Mus musculus with 6 samples.

Results

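The myeloid lineage genes described here are 44 genes of macrophages and granulocytes, chosen by name from general knowledge of those cells. Of these, 42 were matched to 1 probe set each, among 18784 genes tested on the arrays, and the other 2, Cd68 and Fpr1, were not analysed here. The cells were cultured mouse B lymphoma cells with the genotype Arf-/-Eu-myc/Bcl-2, grown on irradiated Arf-/- mouse embryonic fibroblasts as a feeder layer. The tested cells carried Dhx9.1241, a short hairpin RNA named for Dhx9, an RNA and DNA helicase gene (3 arrays), and the control cells carried Rluc.713, a hairpin named for Renilla luciferase (3 arrays). Eu-myc is a transgene that places Myc under an immunoglobulin heavy chain enhancer active in B lineage cells, and all 6 arrays share the Arf-/- genotype and Bcl-2. Each group rests on 1 hairpin, the labels name no drug on these arrays, and they do not tell if replicate arrays stem from separate cultures, so every p-value here reflects variation among arrays alone, possibly technical.

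Macrophages and granulocytes arise from bone marrow progenitors under the transcription factor PU.1 and the C/EBP family, and respond to the cytokines M-CSF, GM-CSF and G-CSF through surface receptors. They take up particles through lectin, scavenger and Fc receptors, kill microbes with lysozyme, granule proteases and the superoxide made by the phagocyte NADPH oxidase, and release lipid mediators. PU.1 and the oxidase are also known in B cells, so these genes are not all foreign to a B lymphoma.

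Dhx9 checks the labels. Its level was 11.46, 11.43 and 11.38 on the log2 scale on Dhx9.1241 arrays 1 to 3, against 12.40, 12.48 and 12.36 on Rluc.713 arrays 1 to 3. Sample titles name the tested arrays for Dhx29 instead, whose level was 10.49, 10.40 and 10.45 on Dhx9.1241 arrays, against 10.34, 10.41 and 10.46 on Rluc.713 arrays. Dhx9 thus lay lower on every Dhx9.1241 array, while the Dhx29 groups overlapped. Rluc.713 array 1 stood apart from the rest, at 16.7 on the second principal component, while the other 5 arrays lay between -5.61 and 3.62, so results are also given without it. B cell markers were bright: 7 of 8 measured markers, among them Cd79a, Cd79b and Pax5, lay at or above the 75th percentile of all genes, and 0 of 12 fibroblast and 0 of 7 T and NK cell markers did.

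In Dhx9.1241 cells 7 of the 42 measured myeloid genes fell and 0 rose, by limma with Benjamini-Hochberg adjustment over all genes and a threshold of 0.05 on the adjusted p. The 7 were Lyz2, Pla2g7, Ncf1, Csf1r, Tyrobp, Cybb and Cd33, with falls between 0.34 and 1.31 on the log2 scale. Over all genes 1.07% were called lower and 2.07% higher. At an unadjusted p under 0.05, 13 members were lower and 1 was higher, where 5.63% of all genes were lower and 8.5% higher. The median change was -0.06 over the 42 members and 0.0049 over all genes tested. The Dhx9.1241 arrays lay below every Rluc.713 array for 12 members, against 8.51% of all genes, and above every one for 2 members, against 11.6% of all genes. In RNA from a whole culture, fewer cells of a type and less RNA per cell cannot be told apart.

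**Figure D1:**
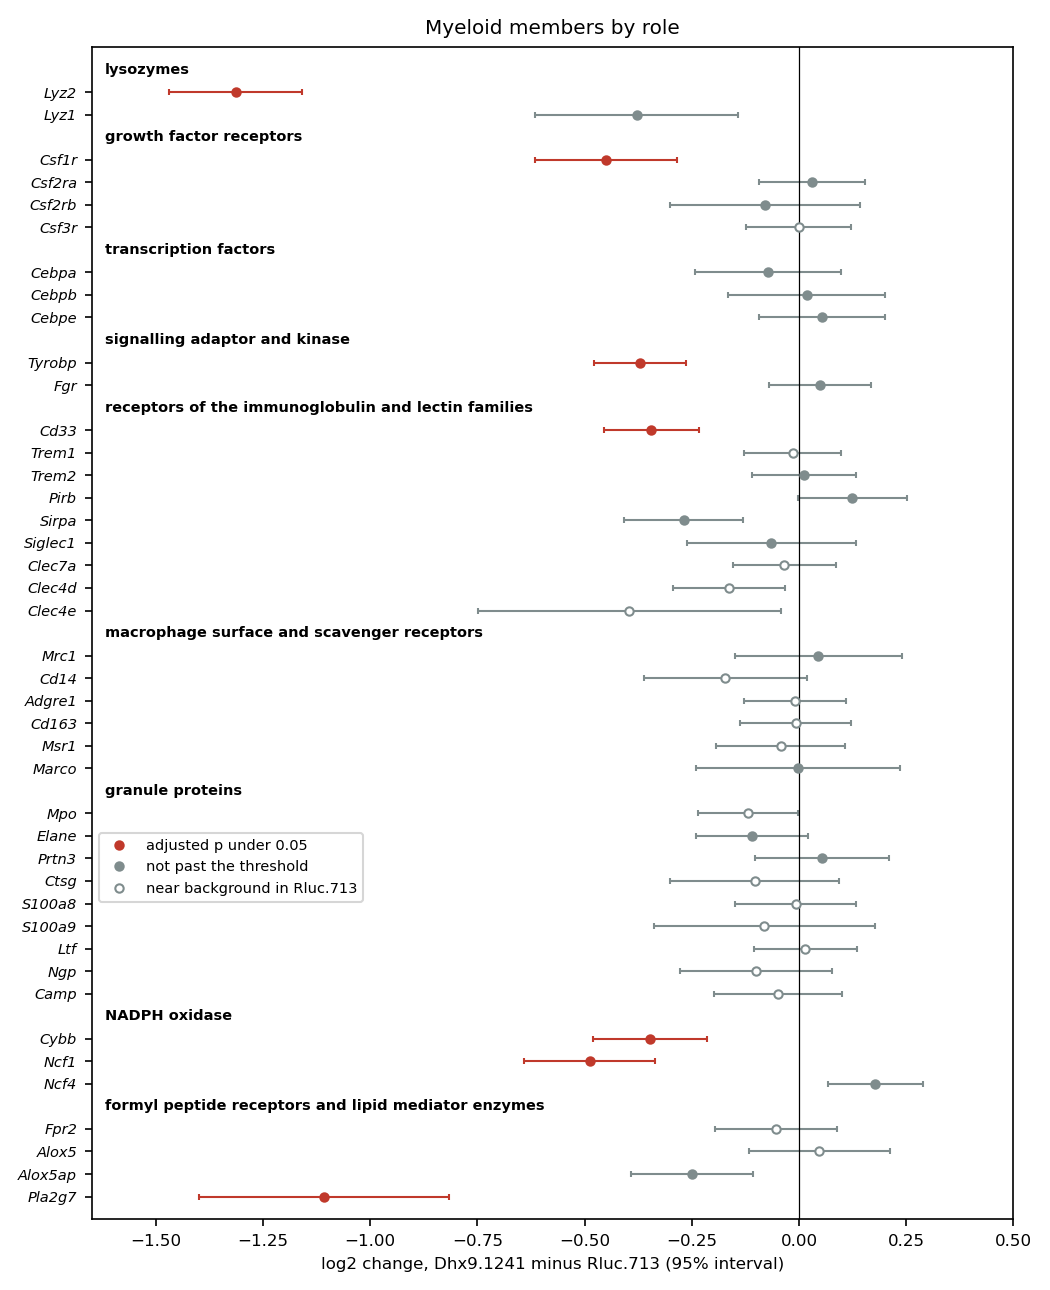
Log2 change of each of the 42 measured members (horizontal axis, Dhx9.1241 minus Rluc.713, bars show the 95% interval of limma), grouped by role, with red for an adjusted p under 0.05 and open points for members near background in Rluc.713. The 7 red points lie left of 0, with Lyz2 at -1.31 and Pla2g7 at -1.11, and the granule proteins lie between -0.12 and 0.05.

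The members were set apart by their signal in Rluc.713 cells, since a gene near background can hardly be seen to fall. The background was taken from 1259 olfactory and vomeronasal receptor genes, which lymphocytes are not known to express: 95% of them had a mean Rluc.713 level of at most 7.79, although the brightest reached 10.37. By this measure 5 members were bright (at or above 10.45, the 75th percentile of all genes), 19 were intermediate and 18 were near background. The bright members were Cybb, Tyrobp, Csf2ra, Ncf4 and Lyz2. Cybb, Tyrobp and Lyz2 fell, and of the 19 intermediate members 4 fell. Lyz2 was bright on the Rluc.713 arrays alone, which also enter the difference: by the mean over all 6 arrays 4 members were bright, 20 were intermediate and 18 near background. None of the 18 near background passed the threshold in the limma test, where 1.07% of all genes were called lower and 2.07% higher. At an unadjusted p under 0.05 in that test, 3 of the 18 were lower and 0 higher. Over all genes these shares were 5.63% and 8.5%. Among all 11868 genes above background, 1.63% were called lower, beside 7 of the 24 members above it. Probes differ in brightness, so these classes do not order the genes by transcript number.

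**Figure D2:**
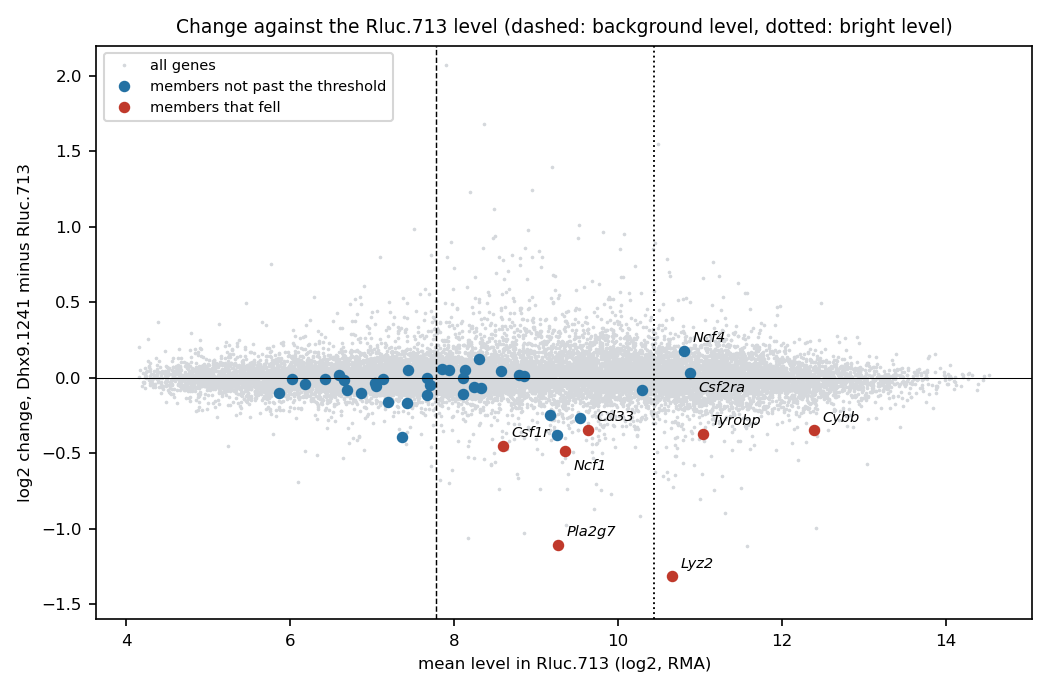
Log2 change (vertical axis, Dhx9.1241 minus Rluc.713) against the mean Rluc.713 level (horizontal axis, log2) for all 18784 genes in grey and the 42 members in colour. Left of the dashed line, at 7.79, lie the 18 members near background, with no red point, and right of the dotted line, at 10.45, the 5 bright members.

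The lysozymes cleave bacterial cell walls, Lyz2 in macrophages and neutrophils and Lyz1, in the mouse, chiefly in Paneth cells of the gut. Lyz2 (probe set 17105_at) was at 9.42, 9.23 and 9.39 on Dhx9.1241 arrays 1 to 3, against 10.64, 10.75 and 10.60 on Rluc.713 arrays 1 to 3. The groups lay far apart next to their spread, and no gene of the 18784 had a more negative change. This made a level 2.49-fold lower, or -1.31 on the log2 scale with an SE of 0.067 (95% interval -1.47 to -1.16, adjusted p = 0.000129). Lyz1 was at 8.807, 8.739 and 9.106 on Dhx9.1241 arrays, against 9.310, 9.117 and 9.360 on Rluc.713 arrays. Its groups came close but did not overlap, and its change of -0.38 (95% interval -0.62 to -0.14, adjusted p = 0.113) did not pass. The genes are neighbours on chromosome 10 with 0 coding genes between them. Their transcripts are much alike, so a probe set named for one may read some of the other, and the Lyz1 value is uncertain for that reason.

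The 250 bases before each lysozyme gene's annotated start are given from RefSeq (GRCm38.p6, minus strand), at chr10:117282273-117282522 for Lyz2 and chr10:117292869-117293118 for Lyz1. They lie before the transcript, so their likeness does not tell what a probe set reads. Transcript and probe sequences of the pair were not compared here. Capitals mark a match to the C/EBP-type motif TTGCNNAA or the PU.1 core GAGGAA, on either strand.
Lyz2: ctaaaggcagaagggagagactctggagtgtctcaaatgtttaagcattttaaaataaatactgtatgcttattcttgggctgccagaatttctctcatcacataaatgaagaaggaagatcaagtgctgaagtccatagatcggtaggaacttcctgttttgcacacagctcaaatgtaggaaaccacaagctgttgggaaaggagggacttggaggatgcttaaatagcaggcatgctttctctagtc
Lyz1: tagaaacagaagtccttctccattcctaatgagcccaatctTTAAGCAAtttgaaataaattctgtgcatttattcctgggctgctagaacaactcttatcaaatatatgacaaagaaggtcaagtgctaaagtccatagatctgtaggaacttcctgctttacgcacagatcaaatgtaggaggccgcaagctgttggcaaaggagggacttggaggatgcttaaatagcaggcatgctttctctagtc
Of 248 aligned base pairs, 200 were identical (80.6%), and the 50 bases next to the start were the same. Lyz1 held 1 match to TTGCNNAA, beginning 209 bases before the start, and Lyz2 held a match to neither motif. Windows of this kind were at hand for 31 of the 42 measured members. GAGGAA was present in 19 of these 31 (61.3%), against 23.1% of 27025 genes with a window, and TTGCNNAA in 5 (16.1%), against 9.55% of all. Among the 5 members that fell and had a window, 1 held GAGGAA and 0 held TTGCNNAA. These letters describe the windows and do not show binding, and a match to one motif shares no letter with a match to the other, although TTGCNNAA can match both strands at the same place.

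Of the growth factor receptors 1 of 4 fell. Csf1r, the M-CSF receptor of macrophages (12978_at), was at 8.17, 8.16 and 8.10 on Dhx9.1241 arrays, against 8.45, 8.61 and 8.73 on Rluc.713 arrays. All Dhx9.1241 arrays were lower, with the smallest distance to Rluc.713 array 1. This made a level 1.37-fold lower, or -0.45 on the log2 scale with an SE of 0.073 (95% interval -0.62 to -0.28, adjusted p = 0.016). The receptors for the other cytokines did not pass. Csf2ra, the alpha chain of the GM-CSF receptor, was bright and at 10.96, 10.92 and 10.84 on Dhx9.1241 arrays, against 10.91, 10.82 and 10.89 on Rluc.713 arrays. These overlapping levels gave a change of 0.03 with a 95% interval of -0.09 to 0.16. Csf2rb, the beta chain, was at 10.27, 10.06 and 10.30 on Dhx9.1241 arrays, against 10.09, 10.38 and 10.40 on Rluc.713 arrays, a change of -0.08 (interval -0.30 to 0.14). Csf2rb has a close paralog next to it on chromosome 15, Csf2rb2, and its probe set may pick up signal from both. Csf3r, the G-CSF receptor of neutrophils, was near background, with a change of -0.0010 (interval -0.12 to 0.12).

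The window of Csf2ra (RefSeq GRCm38.p6, chr19:61228419-61228668, minus strand) is shown because this bright receptor gene held 2 matches to GAGGAA, in capitals, close to its start.
Csf2ra: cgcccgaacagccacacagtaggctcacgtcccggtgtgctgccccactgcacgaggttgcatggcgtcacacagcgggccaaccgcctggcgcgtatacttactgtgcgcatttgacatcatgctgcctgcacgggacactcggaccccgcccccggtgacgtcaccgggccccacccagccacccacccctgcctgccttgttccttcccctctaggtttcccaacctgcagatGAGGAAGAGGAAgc
The matches begin 14 and 8 bases before the annotated start.

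None of the 3 C/EBP transcription factor genes passed, all of them at intermediate levels. Cebpa, which acts in granulocyte and monocyte progenitors, was at 8.32, 8.24 and 8.21 on Dhx9.1241 arrays, against 8.47, 8.20 and 8.32 on Rluc.713 arrays. Cebpe, of late granulocyte maturation, was at 8.111, 7.902 and 7.970 on Dhx9.1241 arrays, against 7.996, 7.892 and 7.935 on Rluc.713 arrays. Both pairs of groups overlapped, with changes of -0.07 (95% interval -0.24 to 0.10) and 0.05 (interval -0.09 to 0.20). Cebpb, of monocytes and inflammatory responses, had a change of 0.02 (interval -0.16 to 0.20).

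Tyrobp encodes DAP12, the adaptor that couples TREM2 and related receptors to intracellular kinases. It was bright (22177_at), at 10.70, 10.64 and 10.66 on Dhx9.1241 arrays, against 11.01, 11.05 and 11.06 on Rluc.713 arrays. Both groups were tight and did not overlap. This made a level 1.29-fold lower, or -0.37 on the log2 scale with an SE of 0.047 (95% interval -0.48 to -0.26, adjusted p = 0.00556). Fgr, a Src family kinase of myeloid and B cells, was at 8.23, 8.18 and 8.14 on Dhx9.1241 arrays, against 8.19, 8.10 and 8.11 on Rluc.713 arrays. The Fgr groups overlapped, and its change was 0.05 (interval -0.07 to 0.17).

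Among 9 receptors of the immunoglobulin and lectin families 1 fell. Cd33, a sialic acid-binding receptor of myeloid cells (12489_at), was at 9.32, 9.29 and 9.27 on Dhx9.1241 arrays, against 9.61, 9.69 and 9.61 on Rluc.713 arrays. No array of one group reached the other. This made a level 1.27-fold lower, or -0.34 on the log2 scale with an SE of 0.048 (95% interval -0.46 to -0.23, adjusted p = 0.00882). Sirpa, the inhibitory receptor for CD47, was at 9.16, 9.36 and 9.27 on Dhx9.1241 arrays, against 9.54, 9.52 and 9.54 on Rluc.713 arrays. The Sirpa groups did not overlap, yet its change of -0.27 (interval -0.41 to -0.13, adjusted p = 0.059) did not pass; it passed under 4 of the 8 alternatives that kept all arrays. Clec4e, or Mincle, a lectin receptor for mycobacterial glycolipid, was at 7.18, 6.61 and 7.12 on Dhx9.1241 arrays, against 7.15, 7.52 and 7.42 on Rluc.713 arrays. Its levels scattered more and overlapped at Rluc.713 array 1, all near background, with a change of -0.40 (interval -0.75 to -0.04, adjusted p = 0.279). Clec4d, its neighbour on chromosome 6, had a change of -0.16 (adjusted p = 0.222), also near background. The others were small: Pirb, an inhibitory receptor with close relatives, stood at 0.12, Siglec1, or sialoadhesin, at -0.06, Clec7a, the beta-glucan receptor Dectin-1, at -0.03, Trem1 at -0.01 and Trem2, a lipid-sensing partner of DAP12, at 0.01, and these did not pass.

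Cd33 was the one member that fell whose window held GAGGAA, in capitals, 226 bases before the annotated start (RefSeq GRCm38.p6, chr7:43533172-43533421, minus strand).
Cd33: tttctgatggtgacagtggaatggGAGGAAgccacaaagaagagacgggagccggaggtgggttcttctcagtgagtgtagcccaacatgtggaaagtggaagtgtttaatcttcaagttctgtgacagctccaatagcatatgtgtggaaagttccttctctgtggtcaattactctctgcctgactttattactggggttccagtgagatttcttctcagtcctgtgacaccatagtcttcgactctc
The windows shown were picked, and only the exact letters GAGGAA were searched, so a window without them is not shown to lack PU.1 sites. Any link between the motif and the falls was not tested.

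The macrophage surface and scavenger receptors gave no call in the limma test, with 0 of 6 past the threshold and 0 at an unadjusted p under 0.05. At that unadjusted p, 5.63% of all genes were lower and 8.5% higher. Adgre1, a defining mouse macrophage marker, Cd163, the haemoglobin scavenger receptor, Msr1, a scavenger receptor for modified lipoprotein, and Cd14, the co-receptor for lipopolysaccharide, were all near background. Cd14 was at 7.09, 7.26 and 7.42 on Dhx9.1241 arrays, against 7.41, 7.37 and 7.51 on Rluc.713 arrays. Mrc1, the mannose receptor, was at 8.70, 8.43 and 8.73 on Dhx9.1241 arrays, against 8.51, 8.56 and 8.65 on Rluc.713 arrays. Both overlapped, with changes of -0.17 (95% interval -0.36 to 0.02) for Cd14 and 0.04 (interval -0.15 to 0.24) for Mrc1. The changes of Adgre1, Cd163, Msr1 and the scavenger receptor gene Marco lay between -0.04 and -0.0020.

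Granule proteins of neutrophils and their precursors were dim. Of 9, 0 were bright, 7 were near background and 0 passed in the limma test. At an unadjusted p under 0.05 in that test, 1 was lower, where 5.63% of all genes were. Mpo, the myeloperoxidase gene, was at 7.50, 7.55 and 7.61 on Dhx9.1241 arrays, against 7.70, 7.68 and 7.63 on Rluc.713 arrays. Elane, of neutrophil elastase, was at 7.97, 8.08 and 7.95 on Dhx9.1241 arrays, against 8.09, 8.06 and 8.17 on Rluc.713 arrays. Mpo was lower on every Dhx9.1241 array by a small margin (change -0.12, interval -0.23 to -0.0019, adjusted p = 0.344), and Elane overlapped (-0.11, interval -0.24 to 0.02). The protease genes Prtn3 and Ctsg stood at 0.05 and -0.10, the calprotectin genes S100a8 and S100a9 at -0.0081 and -0.08, and Ltf (lactoferrin), Ngp and Camp (cathelicidin) at 0.01, -0.10 and -0.05. Elane and Prtn3 are neighbours and related in sequence, as are S100a8 and S100a9.

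Of the 3 NADPH oxidase genes measured 2 fell. Cybb, the membrane subunit gp91phox that passes electrons to oxygen (13058_at), was bright, at 12.08, 11.98 and 12.07 on Dhx9.1241 arrays, against 12.32, 12.37 and 12.47 on Rluc.713 arrays. Ncf1, the cytosolic organiser p47phox (17969_at), was at 8.87, 8.87 and 8.87 on Dhx9.1241 arrays, against 9.22, 9.39 and 9.46 on Rluc.713 arrays. For both genes every Dhx9.1241 array was lower, and the 3 Ncf1 values there were nearly the same. Cybb was 1.27-fold lower, a difference of -0.35 with an SE of 0.058 (95% interval -0.48 to -0.22, adjusted p = 0.0177). Ncf1 was 1.403-fold lower, a difference of -0.49 with an SE of 0.067 (95% interval -0.64 to -0.34, adjusted p = 0.0079). Ncf4, the cytosolic subunit p40phox, was at 11.04, 10.95 and 10.96 on Dhx9.1241 arrays, against 10.80, 10.80 and 10.81 on Rluc.713 arrays. Its direction was the other one, with no overlap, and its change of 0.18 (interval 0.07 to 0.29, adjusted p = 0.11) did not pass. It passed under 3 of the 8 alternatives that kept all arrays.

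Of the 4 formyl peptide receptor and lipid mediator genes measured 1 fell. Pla2g7, a secreted phospholipase that degrades platelet-activating factor (27226_at), was at 8.31, 7.97 and 8.21 on Dhx9.1241 arrays, against 9.01, 9.33 and 9.48 on Rluc.713 arrays. The groups were apart, with a wider spread than for the other members that fell, and 2 of the 18784 genes had a more negative change. This made a level 2.15-fold lower, or -1.11 on the log2 scale with an SE of 0.127 (95% interval -1.399 to -0.815, adjusted p = 0.00381). Alox5ap, the partner protein of 5-lipoxygenase in leukotriene synthesis, was at 9.03, 8.86 and 8.90 on Dhx9.1241 arrays, against 9.24, 9.18 and 9.11 on Rluc.713 arrays. It did not overlap, and its change of -0.25 (interval -0.39 to -0.11, adjusted p = 0.0799) did not pass, though it did under 5 of the 8 alternatives that kept all arrays. Fpr2, a formyl peptide receptor with close relatives, was near background at 6.88, 7.03 and 7.09 on Dhx9.1241 arrays, against 7.07, 7.04 and 7.04 on Rluc.713 arrays. The Fpr2 groups overlapped, with a change of -0.05 (interval -0.20 to 0.09), and Alox5, the lipoxygenase itself, also near background, stood at 0.05 (interval -0.12 to 0.21).

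**Figure D3:**
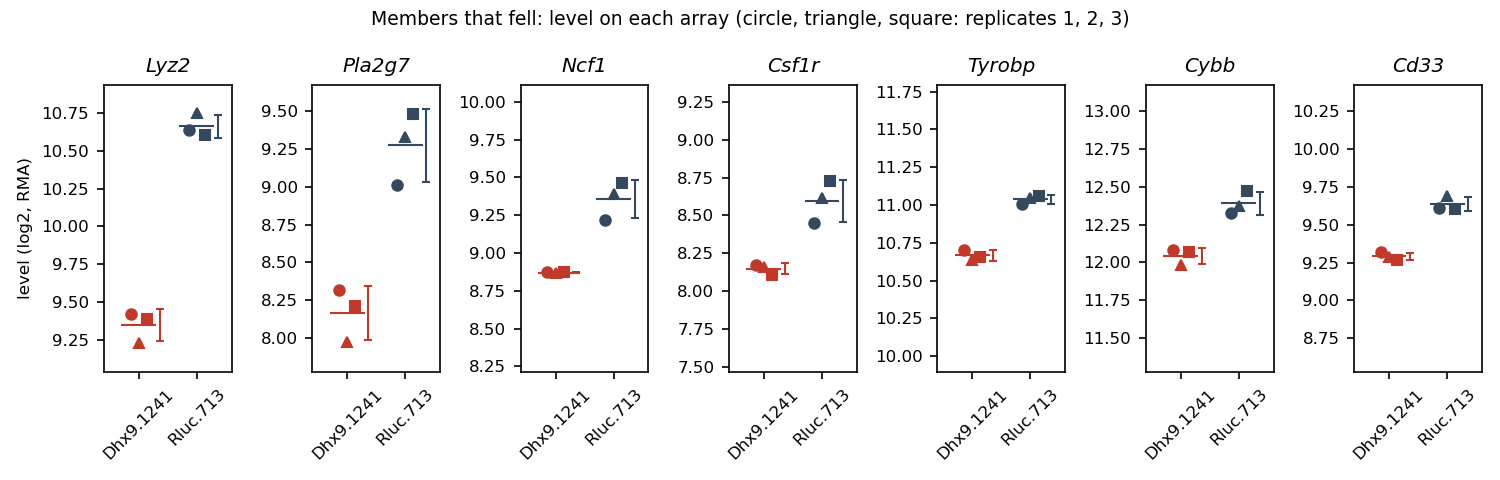
Level of the 7 members that fell on each array (vertical axis, log2, each panel spanning the same height), with Dhx9.1241 in red and Rluc.713 in blue-grey; lines show the mean and bars the SD (n = 3 each). In every panel the 3 Dhx9.1241 arrays lie below the 3 Rluc.713 arrays, farthest apart for Lyz2, at 9.23 to 9.42 against 10.60 to 10.75.

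The calls differed in how far they rested on single arrays. Lyz2, Pla2g7, Ncf1 and Tyrobp passed in all 6 fits with 1 array left out, with adjusted p between 0.00021 and 0.0487. Cd33 passed in 5 of these and was lost without Dhx9.1241 array 3 (0.0551), Csf1r passed in 2, without Rluc.713 array 1 or 3, and Cybb in 1, without Rluc.713 array 1. The lost calls of Csf1r had an adjusted p of 0.06 to 0.0863 and those of Cybb of 0.0634 to 0.0828. All 7 kept their sign, and such fits have fewer arrays. Without Rluc.713 array 1, which lay nearest to the Dhx9.1241 arrays for Pla2g7, Ncf1, Csf1r, Tyrobp and Cybb, 7 members fell and 0 rose, with Pla2g7 at -1.24, Ncf1 at -0.56 and Csf1r at -0.52.

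**Figure D4:**
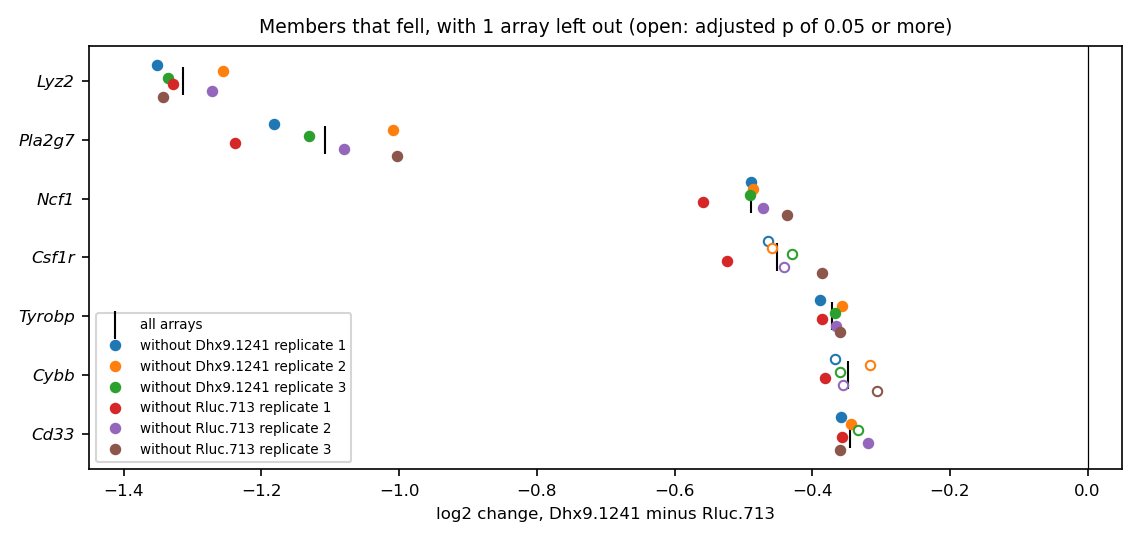
Log2 change (horizontal axis, Dhx9.1241 minus Rluc.713) of the 7 members that fell, with all arrays (black bar) and with each of the 6 arrays left out (coloured points, open where the adjusted p was 0.05 or more). All points lie below 0, and the open ones belong to Csf1r, Cybb and Cd33.

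A further 89 macrophage, granulocyte and related myeloid genes were measured, of 94 listed from general knowledge. Of these, 7 fell, 5 rose and 77 did not pass, with a median change of -0.03. Over all genes tested 1.07% were called lower and 2.07% higher. The chemokine receptor gene Ccr1 was called lower, at 7.17, 6.95 and 7.20 on Dhx9.1241 arrays, against 7.88, 8.30 and 8.34 on Rluc.713 arrays (change -1.06, SE 0.125, adjusted p = 0.004). Its Dhx9.1241 levels lay under the background level of 7.79, so the size of the change is uncertain. With those arrays set to that level the gene was 1.31-fold lower, a value that depends on where the level is drawn. The chemokine genes Ccl6 (-0.74) and Ccl9 (-0.50), the membrane glycoprotein gene Gpnmb (-0.41), the inhibitory receptor gene Lilrb4a (-0.36), the Fc receptor gamma chain gene Fcer1g (-0.32) and the lectin gene Clec4n, or Dectin-2 (-0.29, near background), also fell. The genes that rose were Lgals3, of the lectin galectin-3, at 10.67, 10.72 and 10.72 on Dhx9.1241 arrays, against 10.03, 10.08 and 10.00 on Rluc.713 arrays (change 0.67, SE 0.048, adjusted p = 0.00055), the receptor tyrosine kinase genes Axl (0.50) and Flt3 (0.45), Hcst, the DAP10 adaptor gene (0.34), and Treml2 (0.30). None of 12 granulocyte genes and none of 8 mast cell, eosinophil and basophil genes passed in the limma test. At an unadjusted p under 0.05 in that test, 2 of the granulocyte genes were lower, where 5.63% of all genes were. Among the others 0 were higher or lower. Spi1, which encodes PU.1 and is given here because its motif was searched, was bright and at 12.00, 11.95 and 11.85 on Dhx9.1241 arrays, against 12.15, 12.20 and 12.18 on Rluc.713 arrays. Its groups did not overlap, and its change of -0.24 (interval -0.36 to -0.12, adjusted p = 0.0572) did not pass. Without Rluc.713 array 1 the list gave 13 lower and 6 higher, and without any other 1 array 4 lower and 2 or 3 higher.

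**Figure D5:**
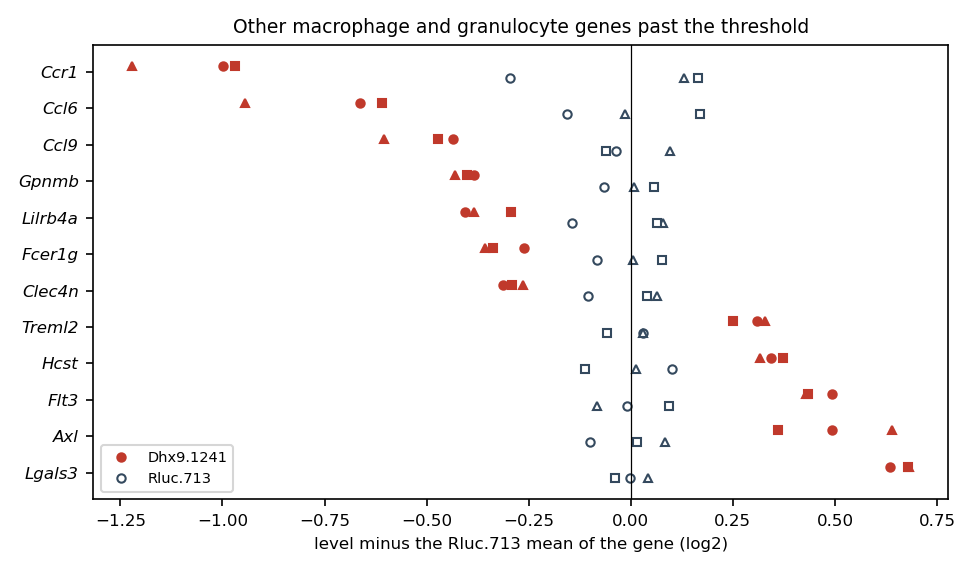
Level on each array minus the gene's Rluc.713 mean (horizontal axis, log2) for the 12 further myeloid genes past the threshold, with filled red points for Dhx9.1241, open points for Rluc.713, and circle, triangle and square for replicates 1, 2 and 3. The 7 genes at the top, with Ccr1, whose Dhx9.1241 levels are under the background level, uppermost, lie left of 0 on all Dhx9.1241 arrays, and the 5 at the bottom right of 0.

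Marker lists of whole cell types were compared by their median change and by their summed signal, taken out of the log2 scale, in which bright probes weigh most. Of the 11 measured macrophage markers 3 fell (Lyz2, Csf1r and Tyrobp), where 1.07% of all genes were called lower. The median change of the 11 was -0.04. Their sum ranged from 4363 to 4492 on Dhx9.1241 arrays, against 5979 to 6067 on Rluc.713 arrays. The other 8, set apart after their values were seen, summed to 1851 to 1903 on Dhx9.1241 arrays, against 1840 to 1983 on Rluc.713 arrays. The 3 genes were left out because they fell, which was bound to narrow the gap. Of the 8 that remained, 4 were near background. Of 17 measured markers shared by macrophages and granulocytes 4 fell, with a median change of -0.08 and sums of 13443 to 14179 on Dhx9.1241 arrays, against 15222 to 16192 on Rluc.713 arrays. The other 13, set apart in the same way, overlapped, with sums of 8061 to 8421 on Dhx9.1241 arrays, against 8188 to 8303 on Rluc.713 arrays. Leaving out the 4 that fell was likewise bound to narrow the gap. The 14 measured granulocyte markers had a median change of -0.05, 10 of them were near background and 0 were called. Their sums ranged from 2417 to 2552 on Dhx9.1241 arrays, against 2535 to 2767 on Rluc.713 arrays. This list and its sums include Lyz1, in the mouse chiefly of Paneth cells, whose probe set may read some Lyz2. Its change of -0.38 was the most negative of the 14. Fibroblast markers of the feeder layer had a median change of -0.03 and sums of 3300 to 3349 on Dhx9.1241 arrays, against 3307 to 3745 on Rluc.713 arrays. Cav1, near background, was called lower (-0.25, adjusted p = 0.0485), 11 of 12 were not called and 6 of 12 were near background. Fn1, at an intermediate level, had the most negative change of the 12 (-0.28, adjusted p = 0.281), and its groups overlapped. At an unadjusted p under 0.05 in the limma test, 2 of the 12 were lower and 0 higher, where 5.63% of all genes were lower and 8.5% higher. The part of fibroblast RNA in the falls was not tested. B cell markers had a median change of -0.09 and sums of 55282 to 57747 on Dhx9.1241 arrays, against 60029 to 63090 on Rluc.713 arrays, with Vpreb3 lower (-0.57, adjusted p = 0.000891) and 7 of 8 not called. Of the 8 changes 7 were negative. The 1 positive change was that of Ms4a1 (0.31, adjusted p = 0.0717), whose groups did not overlap. T and NK cell markers had a median change of 0.04 and sums of 1290 to 1356 on Dhx9.1241 arrays, against 1223 to 1289 on Rluc.713 arrays. Of the 7, 4 were near background and 0 were called in the limma test. At an unadjusted p under 0.05 in that test, 1 of them, Klrb1c (0.22), was higher, where 8.5% of all genes were. The sums of the groups overlapped for granulocyte and fibroblast markers. They did not overlap for macrophage, shared myeloid and B cell markers, lower in Dhx9.1241, with the called genes counted in. For T and NK cell markers they were higher in Dhx9.1241 by a bare margin, 1290 against 1289. Lyz2, also of neutrophils, was counted only as a macrophage marker, so these sums do not tell macrophage from granulocyte RNA.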

How the data were processed

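Total RNA of 6 mouse lymphoma samples was labelled with an Affymetrix 3′ IVT kit and read on arrays, per the labels' protocols. The authors' deposited log2 values come from RMA according to the submitters' processing notes. This method corrects background, usually normalizes by quantiles before probes are combined, and compresses changes of dim genes. The deposited arrays kept medians from 8.43 to 8.51, and normalizing them by quantiles again was an alternative. Not given in the sources used here are its settings, the genome build and how probe sets were defined. The log2 scale was read from the range, 3.97 to 14.6. Of 21212 probe sets, 18786 had 1 gene symbol in the platform annotation, 6 had several and 2420 are unnamed here. Symbols of 18775 were updated by Entrez number from a RefSeq table of GRCm38.p6. Of 2 genes with more than 1 probe set the brighter was used, and no dim gene was filtered out. Dhx9.1241 minus Rluc.713 was fitted for 18784 genes with limma 3.58.1 (lmFit, eBayes) in R 4.3.3, two-sided, with no covariate. All adjusted p-values and intervals are from this fit unless an alternative is named.

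The members and lists were chosen with earlier results of these data known. All members could be named; values per array are given for those called, those bright in Rluc.713 and up to 2 uncalled members of largest change in each role, and, of the further genes called, for the lowest and the highest change. Spi1 was added after its values were seen. Level classes used the Rluc.713 arrays, which also enter the difference. Sequences are those before RefSeq's first listed start of a gene. The fit was tested on simulated data. Depth does not apply to arrays; their number, 3 in each group, limits the precision. Other alternatives were centring, a level filter, a variance trend with robust estimation, array weights, a replicate block, the mean over probe sets and each array left out; cyclic loess was added after the data were seen.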

Additional observations from a re-analysis of the deposited data

How the results depend on the processing

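Of 561 values of single members under the alternatives, 537 stayed on their side of the threshold, 11 lost and 13 gained a call, and 0 called values changed sign; signs of uncalled values were not counted. The 7 called members numbered 4 to 7 with 1 array left out, the fewest without Dhx9.1241 replicate 3, and 6 to 10 under the other alternatives. Ncf4 was called higher, and 8 or 9 members lower, in a fit limited to genes of at least median level, under limma's trend and robust options, and under array weights. Cybb lost its call with the replicate number as a block (adjusted p = 0.0572). Over all genes, 590 were called, and 205 to 896 with 1 array left out, 867 (507 higher, 360 lower) after quantile normalization again, 991 in the fit limited to genes of at least median level, 1139 under the trend and robust options, 1211 under array weights and 264 with the replicate block. The 12 further myeloid genes called became 6 to 19 with 1 array left out and 7 with the replicate block. Same-numbered arrays of the groups had correlations of -0.27, -0.34 and 0.24 between their deviations from the group means. Only number 3 correlated best with its own. Such deviations cancel within each group, so these values cannot tell whether the numbers pair the samples. With the median of all genes, 8.46, as the background level, 11 members were intermediate and 26 near background. Signal over background limits what can be said of the 18 dim members.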
